A study of Caenorhabditis elegans with 6 samples.

Results

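The tricarboxylic acid (TCA) cycle enzymes described here are the products of 10 *C. elegans* genes, *cts-1*, *aco-2*, *idh-1*, *idh-2*, *idha-1*, *ogdh-1*, *sucl-1*, *fum-1*, *mdh-1* and *mdh-2*. The genes were chosen by name, and all 10 were found among the 46739 genes of the count table. They were compared between 3 libraries from wild-type Bristol N2 worms on *E. coli* with the empty vector L4440 (control) and 3 libraries labelled Y37A1B.5 RNAi. In both groups, worms were raised on *E. coli* OP50 at 20 °C to young adulthood, then fed RNAi bacteria for 5 days, and RNA was taken from pooled whole worms. *Y37A1B.5* encodes an ortholog of selenium-binding protein 1, and the comparison asks which transcripts differ when the gene is targeted in adults.

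In the TCA cycle, acetyl-CoA from pyruvate, fatty acids or amino acids is joined to oxaloacetate, and the citrate formed is oxidized stepwise back to oxaloacetate in the mitochondrial matrix. The electrons released pass to NAD or ubiquinone and feed the respiratory chain, and intermediates leave the cycle for the synthesis of glucose, lipids and amino acids. *idh-1* and *mdh-1* belong to the group by reaction rather than by place, since they are named for the cytosolic forms of isocitrate and malate dehydrogenase.

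The libraries held between 34403223 and 46733527 counts on genes, so that each member rested on at least 1083 counts in every library. Levels are given in CPM, the counts scaled to library size with edgeR's TMM factors, and a gene was called at an adjusted p under 0.05. *Y37A1B.5* itself was counted 1126, 1295 and 792 times in control replicates 1 to 3, but 4833, 3519 and 4189 times in the labelled replicates (log2 fold change 1.85, edgeR adjusted p = 0.000834). This count thus goes against the label. Any reads from the RNAi construct and those from the worms' own transcript cannot be told apart in it, so it does not measure the knockdown. Whether construct reads were present, and why the count was higher, was not tested. The libraries are therefore named by their label throughout.

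In the main fit, without a replicate block, none of the 10 members was called higher or lower (edgeR), against 13.7% of the 15003 genes tested. With the replicate number as a block, 1 member was called, *idh-2* (edgeR adjusted p = 0.0331), where 2917 of all genes were called. All 10 passed the filter on low counts. At an unadjusted p under 0.05 there were 2 members, *idh-2* on the lower and *mdh-2* on the higher side, against 33.1% of all genes tested. With DESeq2's Wald test, 1 member was called, *mdh-2* (adjusted p = 0.0368), against 19.3% of the genes with an adjusted p. The libraries of the groups did not overlap for *idh-2* and *mdh-2*, 2 of 10 members, while this was so for 40.5% of all genes tested. The median log2 fold change of the members was −0.048 and that of all genes tested −0.028, with 7 members below and 3 above 0. Members ranged from −0.27 to 0.20 on the log2 scale, and all 95% intervals lay between −0.48 and 0.38.

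**Figure D1:**
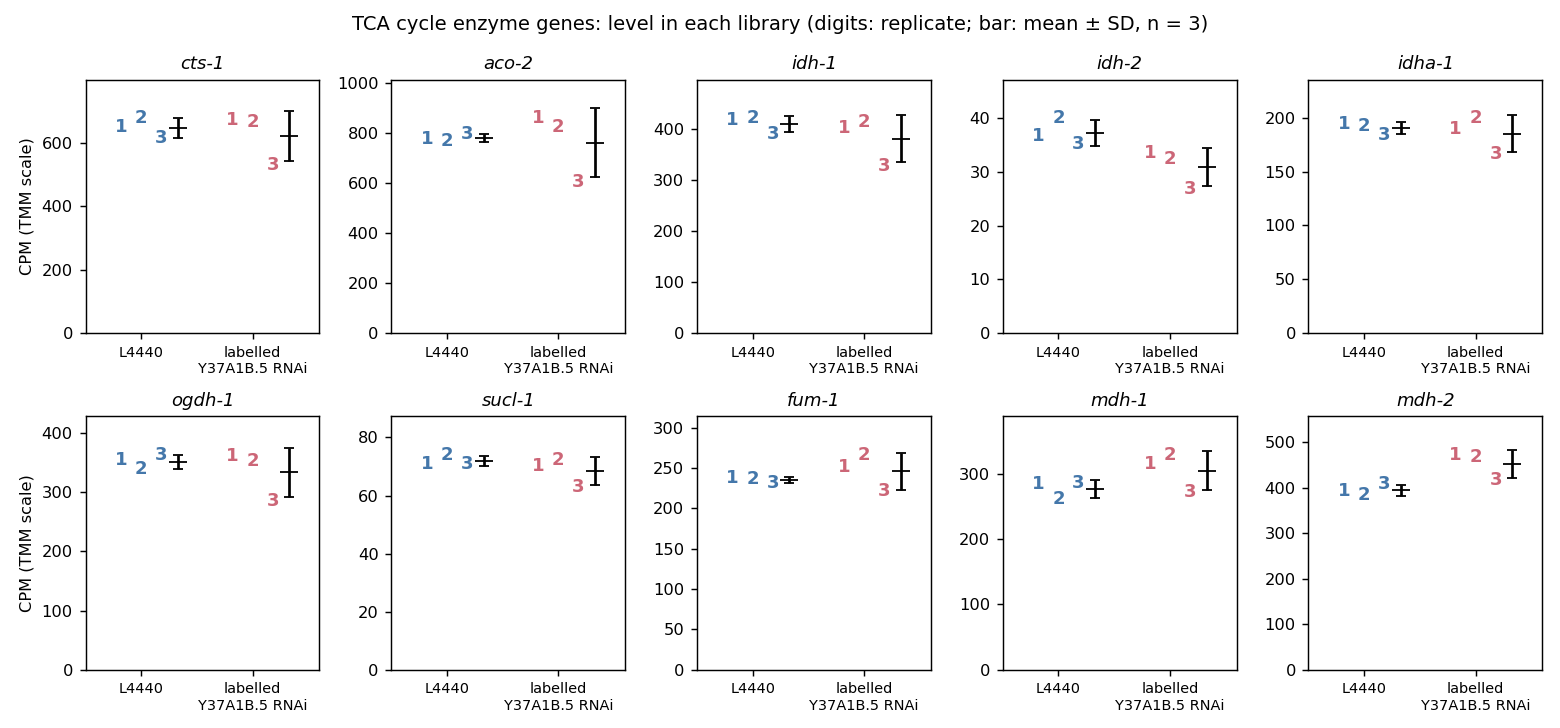
Level of the 10 TCA members in each library, in CPM on an axis from 0, with digits for the replicate number and bars for mean ± SD (n = 3) beside the L4440 and the labelled Y37A1B.5 RNAi libraries. Labelled replicate 3 is the lowest of the labelled libraries in all 10 panels and the lowest of all 6 libraries in 8.

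Citrate synthase, encoded by *cts-1* (WBGene00000833, WBcel235 chromosome III, 10214771 to 10216635, minus strand), joins acetyl-CoA to oxaloacetate and opens the cycle. Its level was 651, 677 and 615 CPM in control replicates 1 to 3 and 672, 665 and 531 CPM in labelled replicates 1 to 3. Labelled replicates 1 and 2 lay within the control range and replicate 3 below it. The log2 fold change of *cts-1* was −0.057 (standard error 0.10, 95% interval −0.29 to 0.17, edgeR adjusted p = 0.736).

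Mitochondrial aconitase, the product of *aco-2* (WBGene00000041, chromosome III, 7973717 to 7977355, plus strand), turns citrate into isocitrate. Control replicates 1 to 3 had 775, 768 and 796 CPM, and the labelled replicates 858, 822 and 602 CPM. Replicates 1 and 2 of the labelled libraries were above all control libraries while replicate 3 was below all of them, so that the group means of 779 ± 14.5 and 761 ± 139 CPM (SD, n = 3) were close and the spread of *aco-2* differed most among the members. Its log2 fold change was −0.035 (standard error 0.12, 95% interval −0.31 to 0.24, edgeR adjusted p = 0.87).

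The next step, from isocitrate to 2-oxoglutarate, is carried out by a NAD-dependent enzyme of the cycle proper and by NADP-dependent enzymes that also supply reducing power. *idh-2* (WBGene00007942, chromosome X, 11216000 to 11218150, plus strand), named for the mitochondrial NADP-dependent form, had 36.8, 40.0 and 35.1 CPM in control replicates 1 to 3. In labelled replicates 1 to 3 it had 33.6, 32.4 and 26.9 CPM, all below all control libraries. This was the lowest fold change of a member, −0.27 on the log2 scale (standard error 0.095, 95% interval −0.48 to −0.059), and it missed the threshold over all genes (edgeR adjusted p = 0.0817). With no filter beyond 1 count *idh-2* was called at −0.25 (edgeR adjusted p = 0.0486), where 3298 of all genes were called. With a replicate block it was called at −0.27 (edgeR adjusted p = 0.0331), where 2917 of all genes were called. The cytosolic form *idh-1* had 418, 422 and 392 CPM in the control against 402, 415 and 329 CPM in the labelled libraries, and the groups overlapped (log2 fold change −0.10, edgeR adjusted p = 0.482). *idha-1*, the catalytic alpha subunit of the NAD-dependent enzyme, had 194, 192 and 184 CPM against 190, 199 and 166 CPM (log2 fold change −0.039, edgeR adjusted p = 0.772). The ratio of *idh-2* to *idh-1*, each per 1000 bases of transcript, was 0.105, 0.113 and 0.107 in the control and 0.0993, 0.0929 and 0.0973 in labelled replicates 1 to 3. The ratios did not overlap between groups (two-sided exact permutation test, p = 0.1, the smallest p that 3 libraries against 3 can give).

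*ogdh-1*, the decarboxylating E1 subunit of the 2-oxoglutarate dehydrogenase complex, had 353, 339 and 363 CPM in control replicates 1 to 3 and 361, 353 and 286 CPM in the labelled replicates (log2 fold change −0.078, edgeR adjusted p = 0.609). *sucl-1*, an alpha subunit of succinyl-CoA ligase, which makes a nucleoside triphosphate directly in the cycle, had 70.8, 73.9 and 70.8 CPM and 70.1, 72.2 and 62.9 CPM (log2 fold change −0.071, edgeR adjusted p = 0.511). In both genes labelled replicate 3 was below all other libraries, and the other labelled libraries lay among or just below the control libraries. *fum-1*, the fumarase that hydrates fumarate to malate, had 238, 236 and 232 CPM in the control and 251, 266 and 221 CPM in the labelled libraries (log2 fold change 0.066, edgeR adjusted p = 0.615).

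Malate dehydrogenase closes the cycle by oxidizing malate to oxaloacetate, and its cytosolic and mitochondrial forms together carry reducing equivalents across the inner membrane. The mitochondrial form *mdh-2* (WBGene00003162, chromosome III, 6606544 to 6608106, minus strand) had 393, 384 and 408 CPM in control replicates 1 to 3 and 472, 467 and 418 CPM in labelled replicates 1 to 3. All labelled libraries were above all control libraries, replicate 3 by the least. The means were 395 ± 12.1 and 452 ± 29.7 CPM (SD, n = 3), which is the largest increase of a member at 0.20 on the log2 scale (standard error 0.081, 95% interval 0.016 to 0.38, edgeR adjusted p = 0.124). *mdh-1* (WBGene00018491, chromosome V, 6515283 to 6516526, minus strand) had 284, 261 and 286 CPM in the control and 314, 329 and 272 CPM in the labelled libraries (log2 fold change 0.14, 95% interval −0.062 to 0.34, edgeR adjusted p = 0.307). Labelled replicates 1 and 2 were above all control libraries for both genes, as for *aco-2* and *fum-1*, which makes 4 of 10 members, against 24.2% of all genes tested. The ratio of *mdh-2* to *mdh-1* per 1000 bases was 1.21, 1.29 and 1.25 in the control and 1.32, 1.25 and 1.35 in the labelled libraries, and overlapped between groups (two-sided exact permutation test, p = 0.3).

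**Figure D2:**
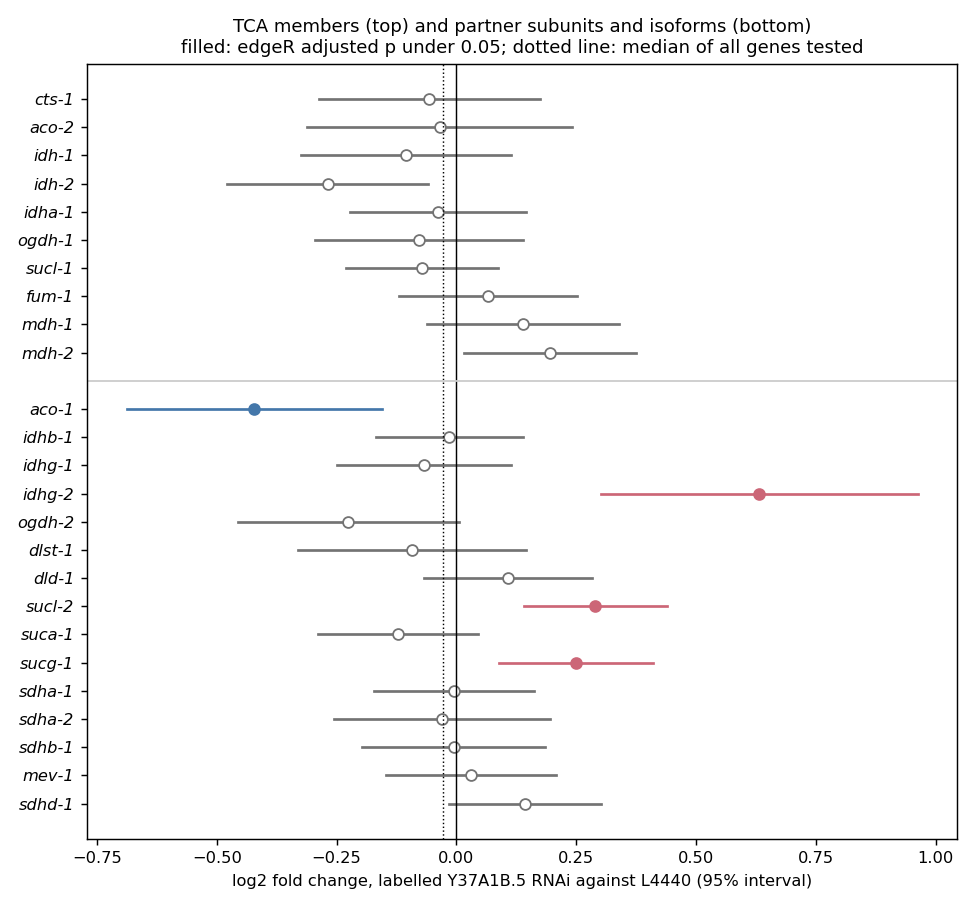
Log2 fold change of the TCA members (top) and of their partner subunits and isoforms (bottom), labelled Y37A1B.5 RNAi against L4440, with 95% intervals from edgeR, filled symbols for an adjusted p under 0.05, and a dotted line at the median of all genes tested. No member is filled, and *aco-1*, *idhg-2*, *sucl-2* and *sucg-1* are.

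Between genes, levels were compared per 1000 bases of the longest annotated transcript. In the control, *cts-1* was the highest member with 379 ± 18.3 CPM per 1000 bases (SD, n = 3), followed by *mdh-2* with 301 ± 9.21, *aco-2* with 285 ± 5.28, *mdh-1* with 241 ± 12.3 and *idh-1* with 240 ± 9.64. *mdh-1* and *idh-1* were the only neighbours in this order whose control libraries overlapped. *fum-1* with 140 ± 2.00, *idha-1* with 130 ± 3.71 and *ogdh-1* with 102 ± 3.42 CPM per 1000 bases came next. The lowest members were *sucl-1* with 57.9 ± 1.45 and *idh-2* with 26.0 ± 1.72. *cts-1* was at percentile 98.4 and *idh-2* at percentile 66.9 of the per-length control levels of all genes tested, so the members are among the more abundant transcripts and *idh-2* is the exception at the low end.

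The coefficient of variation was larger in the labelled than in the control libraries for 10 of 10 members, and for 59.8% of all genes tested. Its median over the members was 3.21% in the control and 10.6% in the labelled libraries, while over all genes tested it was 7.39% and 9.96%. The members are among the more abundant transcripts, and the genes tested were not matched to them in level. Labelled replicate 3 was the lowest labelled library for all 10 members (39.5% of all genes tested) and the lowest of all 6 libraries for 8, with *mdh-1* and *mdh-2* as exceptions (28.6% of all genes tested). Some other lists shared these traits and some did not. The coefficient of variation was larger in the labelled libraries for 14 of 15 partner subunits and isoforms and 12 of 12 protein-coding genes of mitochondrial DNA. It was larger for 5 of 9 genes of exchange with other pathways and 3 of 9 embryo markers tested. Labelled replicate 3 was the lowest labelled library for 12 of 15 partner genes and 12 of 12 germline and oocyte markers. For genes of mitochondrial DNA this held for 4 of 12, and for neuron markers for 5 of 12. Summed over the 10 genes, control replicates 1 to 3 had 3414, 3393 and 3380 CPM and labelled replicates 1 to 3 had 3623, 3621 and 2914 CPM. Labelled replicates 1 and 2 thus lay above and replicate 3 below the control.

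Without labelled replicate 3, 2 members were called, both higher (edgeR), where 7.89% of all genes tested were called higher. They were *mdh-1* at 0.22 (adjusted p = 0.0156) and *mdh-2* at 0.26 (adjusted p = 0.00355) on the log2 scale. In this fit 7 members were above 0 and 3 below, and the median of the members was 0.045. Without labelled replicate 1 or 2 the median was −0.087 or −0.10, with no member called. The other fits without a library called none of the members either.

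**Figure D3:**
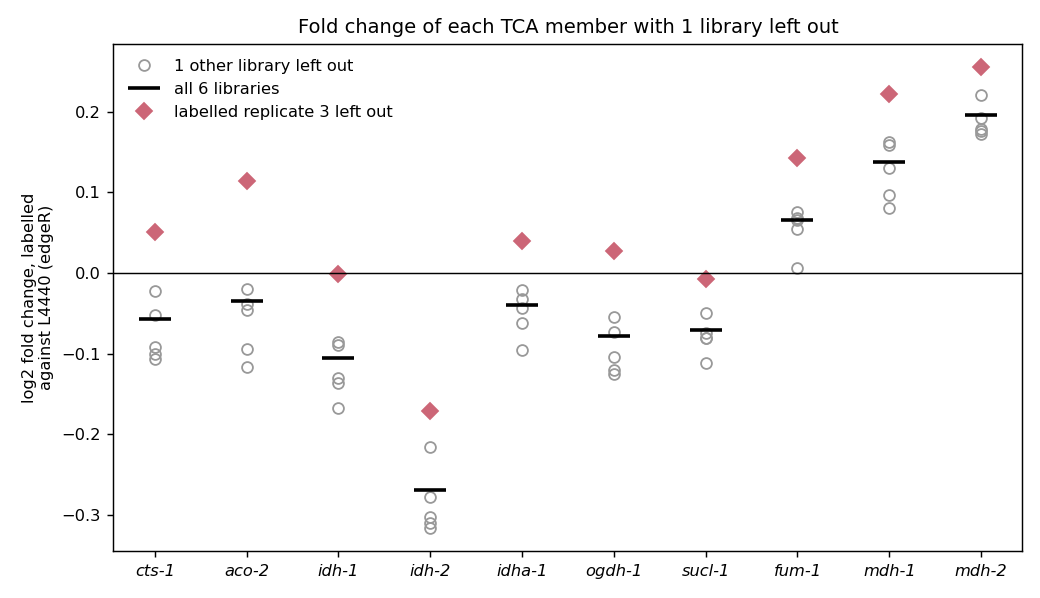
Log2 fold change of each TCA member (edgeR) with all 6 libraries (black bars), with labelled replicate 3 left out (diamonds) and with each other library left out (open circles). Leaving out labelled replicate 3 gives the highest value for every member, 0.26 for *mdh-2* at the top and −0.17 for *idh-2* at the bottom.

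Further properties moved with labelled replicate 3. Against the control mean, the median of the longest 10% of transcripts was −0.49 on the log2 scale in this library, and −0.13 and −0.14 in labelled replicates 1 and 2. The shortest 10% had 0.17 there, and 0.033 and 0.078 in labelled replicates 1 and 2. With a trend on transcript length removed from each library, the longest members *ogdh-1* and *aco-2* stood at 0.15 and 0.14 instead of −0.078 and −0.035. The median of all genes also moved in this fit, to 0.046 from −0.028. *mdh-2* was called in it at 0.24 (edgeR adjusted p = 0.0489, with 19.6% of all genes called). The 12 intestine markers summed to 16192 CPM in labelled replicate 3, against 28289 to 30050 CPM in labelled replicates 1 and 2 and 25198 to 31724 CPM in the control. The vitellogenins *vit-2*, *vit-5* and *vit-6*, which encode yolk proteins, made up 15319 of these 16192 CPM. The other 9 intestine markers, summed separately after the values were seen, had 873 CPM in labelled replicate 3, 1197 and 1256 CPM in labelled replicates 1 and 2 and 852 to 1233 CPM in the control. The 12 germline and oocyte markers summed to 9377 CPM there, against 11936 to 12065 and 10153 to 11205 CPM. None of the genes of these lists was called by edgeR, against 13.7% of all genes tested. At an unadjusted p under 0.05 (edgeR) there were 2 and 0, against 33.1% of all genes tested. DESeq2 called 1 and 0 of them, against 19.3% of the genes with an adjusted p, and no gene of these lists was at 0 counts. In RNA from whole worms, fewer cells of a type and less RNA per cell cannot be told apart. The part of transcript length and of tissue markers in the members' values was not tested beyond these figures.

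The remaining subunits and isoforms of the cycle were described as a list of 15 genes, written from general knowledge but with earlier results of these data known. Of these, 3 were called higher and 1 lower (edgeR; background 4.81% and 8.85%), and the median log2 fold change was −0.0055. Without control replicate 1 or without control replicate 2 none of the 15 was called (edgeR, where 5.64% and 4.79% of all genes were called). Without control replicate 3, labelled replicate 1 or labelled replicate 2 there were 2 calls each, and *idhg-2* was among them each time. In these fits 1754, 1346 and 1390 of all genes were called (edgeR).

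The genes called higher included subunits of succinyl-CoA ligase, an enzyme of an alpha subunit and a beta subunit specific for ADP or GDP. *sucl-2* (WBGene00017759, chromosome III, 900138 to 901412, minus strand), the second alpha subunit gene, had 135, 138 and 138 CPM in control replicates 1 to 3 and 163, 164 and 175 CPM in the labelled replicates. Its groups lay apart, and its log2 fold change was 0.29 (standard error 0.067, 95% interval 0.14 to 0.44, edgeR adjusted p = 0.0216). Besides the fits without control replicate 1 or 2, it was not called without control replicate 3 (edgeR adjusted p = 0.052) or labelled replicate 2 (0.0503). *sucg-1* (WBGene00016844, chromosome IV), the GDP-specific beta subunit, rose from 107, 103 and 113 CPM to 124, 123 and 136 CPM (log2 fold change 0.25, standard error 0.072, edgeR adjusted p = 0.047). Its call held without labelled replicate 3 (edgeR adjusted p = 0.0163) but not when any other library was left out (0.0593 to 0.189), with upper-quartile factors (0.0662) or with scaling to reference genes (0.0668). For both genes, replicate 3 was the highest labelled library, the reverse of the 10 members.

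Their counterparts did not pass the test. *suca-1*, the ADP-specific beta subunit, had 117, 112 and 110 CPM in the control and 102, 112 and 96.6 CPM in the labelled libraries (log2 fold change −0.12, edgeR adjusted p = 0.28), and *sucl-1* stood at −0.071. The ratios between these paralogs were calculated after their values were seen and are given without a test. Per 1000 bases, *sucl-2* to *sucl-1* was 2.11 ± 0.0468 in the control (SD, n = 3) and 2.57, 2.51 and 3.07 in labelled replicates 1 to 3. *sucg-1* to *suca-1* was 1.11 ± 0.076 in the control (SD, n = 3) and 1.41, 1.27 and 1.64 in the labelled libraries, so that neither ratio overlapped between groups.

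**Figure D4:**
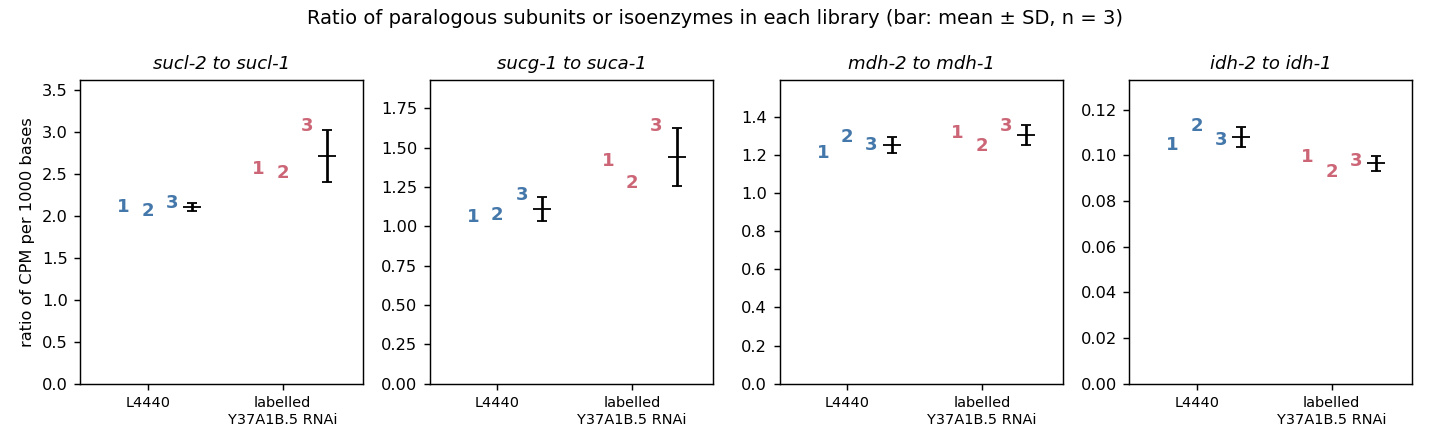
Ratio of paralogous subunits or isoenzymes in each library, from levels per 1000 bases of transcript on axes from 0, with digits for the replicate number and bars for mean ± SD (n = 3). The 2 succinyl-CoA ligase ratios are higher in all labelled libraries, *mdh-2* to *mdh-1* overlaps, and *idh-2* to *idh-1* is lower in all labelled libraries.

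*aco-1* (WBGene00000040, chromosome X), the cytosolic aconitase, is related to the iron regulatory protein of mammals. It fell from 202, 214 and 177 CPM in control replicates 1 to 3 to 156, 166 and 120 CPM in labelled replicates 1 to 3, with no overlap. The log2 fold change was −0.42 (standard error 0.12, 95% interval −0.69 to −0.15, edgeR adjusted p = 0.0444), and with the length trend removed it was −0.24 and no longer called (adjusted p = 0.0731). It also lost its call without control replicate 1 (edgeR adjusted p = 0.136), control replicate 2 (0.168) or labelled replicate 1 (0.0628). *aco-2*, the mitochondrial aconitase, stood at −0.035.

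*idhg-2* (WBGene00016266), a gamma subunit gene of the NAD-dependent isocitrate dehydrogenase, was the least abundant gene of the list, with 2.65, 3.21 and 3.09 CPM in the control and 4.08, 4.27 and 5.51 CPM in the labelled libraries. Its log2 fold change was 0.63 (standard error 0.15, 95% interval 0.30 to 0.96, edgeR adjusted p = 0.0226). Per 1000 bases its control level was 2.07 ± 0.202 CPM, while that of the other gamma subunit gene *idhg-1* was 116 ± 4.82 CPM (SD, n = 3). *idhg-1* and the beta subunit *idhb-1* stood at −0.068 and −0.015 (edgeR adjusted p of 0.593 and 0.904), next to −0.039 for *idha-1*.

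The genes of the other complexes were not called. In succinate dehydrogenase, which passes electrons to ubiquinone, the flavoprotein subunits *sdha-1* and *sdha-2*, the iron-sulfur subunit *sdhb-1* and the membrane anchors *mev-1* and *sdhd-1* ranged from −0.030 for *sdha-2* to 0.14 for *sdhd-1* on the log2 scale, with edgeR adjusted p of 0.189 to 0.973. Their 95% intervals lay between −0.26 and 0.30. In the 2-oxoglutarate dehydrogenase complex, the E2 subunit *dlst-1* stood at −0.092 and the E3 subunit *dld-1*, which other dehydrogenase complexes share, at 0.11 (edgeR adjusted p of 0.577 and 0.362), and without labelled replicate 3 *dld-1* was called at 0.18 (adjusted p = 0.0178). *ogdh-2*, a second gene named for the E1 subunit, had 146 ± 3.35 CPM in the control (SD, n = 3) and 135, 137 and 103 CPM in the labelled libraries (log2 fold change −0.23, edgeR adjusted p = 0.16).

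Around the cycle, 9 genes of pyruvate entry, covering pyruvate dehydrogenase and its kinase and phosphatase, the mitochondrial pyruvate carrier and pyruvate carboxylase, had a median log2 fold change of 0.078 with 1 gene called higher and 0 lower (edgeR, where 4.81% and 8.85% of all genes tested were called). The gene was *mpc-2* of the pyruvate carrier, with 38.9, 40.7 and 42.9 CPM in the control and 49.7, 47.5 and 49.6 CPM in the labelled libraries (log2 fold change 0.26, standard error 0.068, edgeR adjusted p = 0.0322). It lost its call without control replicate 1 (edgeR adjusted p = 0.152), without control replicate 2 (0.12), without labelled replicate 1 (0.0708) or 2 (0.0613), when scaled to reference genes (0.0682) and with the length trend removed (0.0607). Of 9 genes that exchange citrate, malate, oxaloacetate or 2-oxoglutarate with other pathways, none was called (edgeR), at a median of 0.021. Of these, 2 had an unadjusted p under 0.05 (edgeR), and DESeq2 called 1. For this list and those below, the shares over all genes were 33.1% at an unadjusted p under 0.05 and 19.3% with DESeq2. Of 19 glycolysis genes 18 were tested, at a median of 0.11 with 13 above 0, and none was called (edgeR; 2 at an unadjusted p under 0.05, and 2 called with DESeq2). Without labelled replicate 3, 9 of them were called higher, where 7.89% of all genes tested were. The 12 protein-coding genes of mitochondrial DNA had a median of 0.19, with none called (edgeR; 1 at an unadjusted p under 0.05, and 0 called with DESeq2), and without labelled replicate 3, 2 of them were called higher. Their median against the control mean was 0.35 in labelled replicate 1, 0.015 in replicate 2 and 0.087 in replicate 3, and without labelled replicate 1 the median log2 fold change was 0.072. The largest fold changes of this list, 0.35 to 0.44, were those of its scarce genes, with control means of 0.59 to 2.1 CPM. The others, at 228 CPM or more, ranged from −0.056 to 0.21. Summed CPM overlapped, with 4545 to 4805 in the control and 4407 to 5646 in the labelled libraries.

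Markers of other tissues were counted in the same comparison, where 8.85% of all genes tested were called lower and 4.81% higher (edgeR). Of 10 hypodermis markers 4 were called lower and 1 higher, and their sum was 357 to 413 CPM in the control and 277 to 311 CPM in the labelled libraries. Of 12 neuron markers 3 were called lower and 0 higher, with sums of 296 to 318 and 273 to 292 CPM. Body wall muscle markers, with 12 genes, had 1 called higher and 0 lower, with overlapping sums of 892 to 980 and 824 to 913 CPM. At an unadjusted p under 0.05 (edgeR), 5 of them were lower and 2 higher, against 33.1% of all genes tested in either direction. DESeq2 called 2 of them higher and 1 lower. In these lists no marker was at 0 counts, and their part in the values of the members was not tested.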

How the data were processed

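The authors deposited raw counts per gene for 6 libraries, without normalization. As the methods of the study state, RNA was made into stranded mRNA libraries, and single-end reads were trimmed with SGA preprocess, mapped to WBcel235 with TopHat2 2.1.0 and counted on the gene's strand with featureCounts 1.5.0. Reads with several positions or over several genes were not counted, so paralogs that share sequence are less certain. Groups and replicate numbers came from the titles, and each group had 3 libraries from separate experiments.

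The test was that of edgeR 4.0.16, run under R 4.3.3 (TMM, filterByExpr with minimum count 10 and total 15, two-sided quasi-likelihood test, Benjamini-Hochberg over 15003 genes, called at 0.05). Intervals of fold changes are from the same fit. Symbols, coordinates and longest transcripts came from Ensembl release 115 of WBcel235, in which 14919 genes tested had a length. The script was tested on simulated data. The simulated effects were larger than the fold change of any member, so the power at the size of the members' changes was not tested. With 3 libraries against 3, an exact permutation test gives no p under 0.1. Alternatives were DESeq2 1.42.0, RLE and upper-quartile factors, a replicate block, filters of 1 count in all or 10 counts per library, scaling to the reference genes of the qRT-PCR (*tba-1*, *cdc-42* and *pmp-3*), removal of a trend on transcript length (loess, span 0.5) and leaving out each library.

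The members and lists were chosen with earlier results of these data known. Named were all members, all partner subunits and isoforms, at most the 4 genes with the smallest adjusted p under 0.05 in each direction of each other list, and *Y37A1B.5*. *got-1.1*, *got-1.3*, *msd-1* and *ssp-9* matched no single gene. Lists for pharyngeal muscle (0 higher and 1 lower of 6), sperm (0 and 0, 4 of 8 tested) and embryo (1 and 2, 9 of 12 tested) were also counted. No sequences were used here.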

Additional observations from a re-analysis of the deposited data

How the results depend on the processing

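Counts of called genes moved as follows. Of all genes 2050 were called (13.7%), 3298 with no filter beyond 1 count, and 727 (without control replicate 2) to 2811 (without labelled replicate 3) with 1 library left out. With the length trend removed 2920 of all genes were called (19.6%), and with DESeq2 2468 (19.3%). RLE factors called 2172, at least 10 counts in every library 2061 and scaling to reference genes 1530. Of the members (0 called), 1 was called with no filter, with the length trend removed and with DESeq2, and 0 to 2 with 1 library left out. *idh-2* was that gene with no filter (edgeR adjusted p = 0.0486) and *mdh-2* in the other fits. Of partner subunits and isoforms (4 called), 0 to 5 were called with 1 library left out. Of the pyruvate entry genes (1 called), 2 were called with no filter and with DESeq2, 0 with scaling to reference genes, and 0 to 2 with 1 library left out. Of the exchange genes (0 called), 1 was called with no filter, 3 with the length trend removed, 1 with DESeq2 and 0 to 1 with 1 library left out. Of the glycolysis genes (0 called), 2 were called with RLE factors, 1 with no filter, 1 with at least 10 counts in every library, 4 with the length trend removed, 2 with DESeq2 and 0 to 9 with 1 library left out. Of the genes of mitochondrial DNA (0 called), 0 to 2 were called with 1 library left out. The cause was not tested.

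Uncalled genes near 0 changed sign, on the log2 scale. Removing the length trend gave 0.14 for *aco-2*, 0.15 for *ogdh-1*, 0.071 for *idhb-1*, 0.041 for *idhg-1*, 0.14 for *sdha-1*, 0.068 for *sdha-2* and 0.039 for *sdhb-1*. The median of all genes was 0.046 in that fit and −0.028 in the main fit, so *idhg-1* and *sdhb-1* stayed below the former. For *idhb-1*, *sdha-1* and *sdhb-1*, RLE factors gave 0.0044, 0.013 and 0.013, no filter 0.0019, 0.011 and 0.011, scaling to reference genes 0.013, 0.021 and 0.018, and DESeq2 0.016, 0.025 and 0.025. Upper-quartile factors gave −0.0031 for *mev-1*. With 1 library left out the ranges were −0.11 to 0.051 for *cts-1*, −0.12 to 0.11 for *aco-2*, −0.096 to 0.039 for *idha-1*, −0.13 to 0.028 for *ogdh-1*, −0.037 to 0.044 for *idhb-1*, −0.11 to 0.0011 for *idhg-1*, −0.16 to 0.040 for *dlst-1*, −0.041 to 0.068 for *sdha-1*, −0.093 to 0.094 for *sdha-2*, −0.060 to 0.088 for *sdhb-1* and −0.031 to 0.078 for *mev-1*. *idh-1*, *idh-2* and *sucl-1* stayed below 0 and *fum-1*, *mdh-1* and *mdh-2* above 0 in all 14 alternatives. The log2 ratio of *mdh-2* to *mdh-1* differed by 0.034 to 0.092 and that of *idh-2* to *idh-1* by −0.18 to −0.13 with 1 library left out.

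The replicate block called 2917 genes, 1 member (*idh-2*, edgeR adjusted p = 0.0331), 2 pyruvate entry genes and 1 exchange gene. Same-numbered libraries deviated together by correlations of 0.133, 0.0599 and 0.117 across genes, and each library correlated best with its own number. Not every pair was over 0.1, and the labels do not say whether equal numbers mark the same experiment, so the block stayed an alternative. With 3 libraries a group, the 95% intervals of the members other than *idh-2* and *mdh-2* included 0.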
